A study of Rattus norvegicus with 20 samples.

Results

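The 5 genes described here handle glucose and pyruvate in heart muscle: the glucose transporters Slc2a1 (ENSRNOG00000007284) and Slc2a4 (ENSRNOG00000017226), hexokinase 2, Hk2 (ENSRNOG00000006116), pyruvate dehydrogenase kinase 4, Pdk4 (ENSRNOG00000009565), and the glycolytic enzyme Gapdh (ENSRNOG00000018630). They were taken by Ensembl ID from a count table of 24059 IDs. All 5 were in the table, 0 were missing, and all 5 were among the 14293 genes that passed the filter on low counts. The table lists IDs without names, so the symbols come with the definition of the group and could not be checked against a table of names.

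Ventricular RNA of 20 male Sprague Dawley rats was sequenced, with 5 rats in each of 4 groups and 1 library for each rat. Control rats of both genotypes, WT control and Vegfb KO control, received no streptozotocin and were littermate-matched to the diabetic rats. WT diabetic rats and Vegfb KO diabetic rats received a 55 mg/kg intravenous dose of streptozotocin (STZ), which destroys pancreatic beta cells and with them the source of insulin, and hearts were taken on day 4 of diabetes. All 4 groups are labelled as week 9 animals. In the Vegfb KO a beta-galactosidase gene was knocked into Vegfb with zinc finger nucleases, so the gene is disrupted in the whole animal and not only in the heart. The design asks how STZ diabetes changes the ventricle in each genotype and whether loss of Vegfb alters that change.

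Glucose enters a heart muscle cell through SLC2A1 (GLUT1), which supplies basal uptake, and SLC2A4 (GLUT4), which insulin brings from vesicles to the cell surface. Hexokinase then phosphorylates the glucose, and HK2 is a main hexokinase of adult heart and skeletal muscle. PDK4 phosphorylates and inhibits the pyruvate dehydrogenase complex, which limits the oxidation of pyruvate, and the Pdk4 gene is known to respond to fasting, fatty acids and low insulin. GAPDH catalyses a middle step of glycolysis and is often used as a reference gene.

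Levels are given in CPM, counts per 1000000, the estimated count of a gene divided by the scaled total of its library. Totals ranged from 7314287 to 26664479 in WT controls, 12965611 to 23399247 in WT diabetic, 18334499 to 24387305 in Vegfb KO control and 7220469 to 21935785 in Vegfb KO diabetic hearts. In WT diabetic replicate 2 and Vegfb KO diabetic replicate 1, 1 ID held 23.3% and 25.5% of the count, and no ID held more than 13.3% in the other 18 libraries. The count of Vegfb itself could not be read without names. The ID with the largest fall in both genotype comparisons, picked after its values were seen, lay between 99.7 and 145 CPM in the 10 WT libraries and between 0 and 1.26 CPM in the 10 Vegfb KO libraries. Since it was chosen from those comparisons, it is no independent check of the genotype labels.

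Promoter sequence from RefSeq was at hand for 4 of the 5 genes, all except Slc2a4. The 250 bases before the start are printed for Slc2a1 and Hk2, which fell with diabetes, and for Pdk4, which rose, in build GRCr8 and 5′ to 3′ on the strand of the gene. They lie at chr5:138002272-138002521 on the plus strand for Slc2a1, at chr4:116841276-116841525 on the minus strand for Hk2 and at chr4:34568330-34568579 on the minus strand for Pdk4. Capitals mark matches to the motifs searched.
Slc2a1: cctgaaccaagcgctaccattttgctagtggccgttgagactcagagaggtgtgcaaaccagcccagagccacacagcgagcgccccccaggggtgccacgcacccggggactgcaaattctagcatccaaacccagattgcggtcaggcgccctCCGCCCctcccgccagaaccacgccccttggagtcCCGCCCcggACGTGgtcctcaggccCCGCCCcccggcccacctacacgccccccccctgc
Hk2: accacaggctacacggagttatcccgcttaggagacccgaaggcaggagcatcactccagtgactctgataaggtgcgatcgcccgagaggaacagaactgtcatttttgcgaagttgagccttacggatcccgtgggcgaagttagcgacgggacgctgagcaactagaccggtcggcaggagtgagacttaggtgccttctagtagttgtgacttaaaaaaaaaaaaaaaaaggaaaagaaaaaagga
Pdk4: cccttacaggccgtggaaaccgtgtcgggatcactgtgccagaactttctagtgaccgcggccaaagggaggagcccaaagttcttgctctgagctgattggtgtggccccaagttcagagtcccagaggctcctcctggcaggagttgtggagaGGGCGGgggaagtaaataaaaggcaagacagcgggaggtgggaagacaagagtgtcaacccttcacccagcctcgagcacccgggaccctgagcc

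The 6 motifs searched on both strands were the TATA box TATAAA, the E-box CACGTG, the core ACGTG of hypoxia elements (which also lies inside the E-box), the FoxO motif GTAAACA, the nuclear receptor motif AGGTCA and the GC box GGGCGG. Slc2a1 held 3 GC boxes, all on the other strand, and 1 ACGTG on the strand of the gene, 51 to 47 bases before the start. Pdk4 held 1 GC box, 95 to 90 bases before the start, and Hk2 held no match to any of the 6. In Gapdh, whose sequence is not printed, there was a TATAAA 26 to 21 bases before the start and an ACGTG on the other strand. Among the same 250 bases of 33469 promoters, 30.5% held the GC box, 16.6% ACGTG, 14.1% AGGTCA, 12.9% TATAAA, 5.59% CACGTG and 3.21% GTAAACA. The share of G and C was 68.4% in Slc2a1, 49.6% in Hk2, 59.2% in Pdk4 and 63.6% in Gapdh, beside a median of 51.2% over all promoters. These are matches of letters, and binding was not measured.

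With diabetes, Slc2a1, Slc2a4, Hk2 and Gapdh fell and Pdk4 rose, in WT and in Vegfb KO hearts alike. A gene was called where the adjusted p from edgeR was under 0.05 and the log2 fold change exceeded 0.27 in either direction. In WT, 5 of the 5 genes were called, beside 13.1% of all genes tested. Of these, 4 were lower, a call made for 7.07% of all genes, and 1 was higher, a call made for 6.06%. In Vegfb KO, 5 of 5 were called, beside 7.84% of all genes, with 4 lower (4.21% of all genes) and 1 higher (3.63%). The diabetic and control hearts did not overlap in CPM for 5 of 5 genes in either genotype, which held for 9.38% of all genes in WT and 8.21% in Vegfb KO. The 7.84% for Vegfb KO rests on 1121 genes, and 643 genes were called without Vegfb KO diabetic replicate 3. The tissue was sequenced in bulk, so fewer cells of a type and less RNA per cell cannot be told apart for any of these genes.

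**Figure D1:**
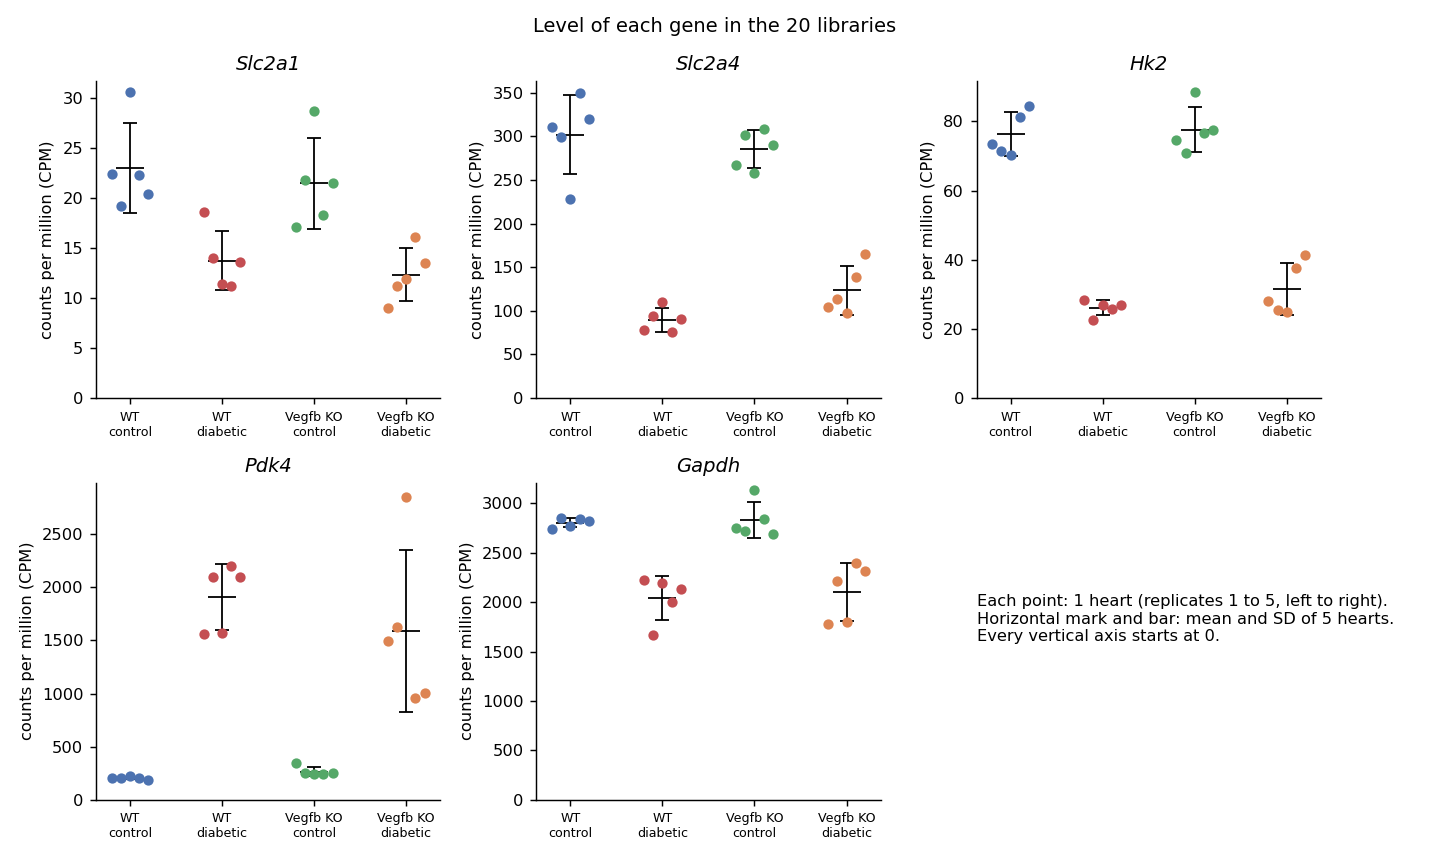
Level of each gene in CPM (vertical axis, from 0) in the 4 groups (horizontal axis), with 1 point for each heart and the mean and SD of 5 hearts as a mark and bar. For each gene the diabetic hearts lie apart from the controls of their genotype, and the widest spread is that of Pdk4 in Vegfb KO diabetic hearts, from 957 to 2852 CPM.

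Slc2a1, the basal transporter, had the lowest counts of the 5 genes, with a minimum of 45 in Vegfb KO diabetic replicate 1 (95% Poisson interval 32.8 to 60.2, for counting error only). WT control hearts, in replicates 1 to 5, had 22.4, 19.2, 30.6, 22.2 and 20.4 CPM, and WT diabetic hearts 18.5, 14.0, 11.4, 11.2 and 13.6 CPM. Vegfb KO control hearts had 17.0, 21.8, 28.6, 18.3 and 21.4 CPM, and Vegfb KO diabetic hearts 8.99, 11.2, 11.9, 16.1 and 13.5 CPM. The gap between diabetic and control hearts was narrow in both genotypes, with WT diabetic replicate 1 just under the lowest WT control and Vegfb KO diabetic replicate 4 just under the lowest Vegfb KO control. The mean went from 22.9 ± 4.47 to 13.7 ± 2.97 CPM in WT (SD, n = 5 each), -0.76 as a log2 fold change (SE 0.16, edgeR adjusted p = 0.00271). In Vegfb KO it went from 21.4 ± 4.51 to 12.3 ± 2.67 CPM (SD, n = 5 each), -0.77 as a log2 fold change (SE 0.17, edgeR adjusted p = 0.00462). Slc2a1 was 1.69-fold lower in WT and 1.71-fold lower in Vegfb KO.

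Slc2a4, the insulin-responsive transporter, showed the largest fall of the 5 genes in WT. WT control hearts had 311, 299.9, 228, 349.8 and 320.1 CPM in replicates 1 to 5, and WT diabetic hearts 78.6, 93.5, 110.2, 75.6 and 90.8 CPM. Vegfb KO control hearts had 267, 302, 258, 308 and 291 CPM, and Vegfb KO diabetic hearts 104, 113, 97.2, 139 and 165 CPM. Every diabetic heart was below every control heart of either genotype, and Vegfb KO diabetic replicates 4 and 5 were the highest of the 10 diabetic hearts. In WT the mean went from 302 ± 45.2 to 89.7 ± 13.8 CPM (SD, n = 5 each), -1.75 as a log2 fold change (SE 0.14, edgeR adjusted p = 1e-08), which is 3.36-fold lower. In Vegfb KO it went from 285 ± 21.9 to 124 ± 28.0 CPM (SD, n = 5 each), -1.20 as a log2 fold change (SE 0.13, edgeR adjusted p = 2.92e-06), which is 2.30-fold lower. By size, Slc2a4 was number 26 among the 1010 genes called lower in WT and number 46 among the 602 called lower in Vegfb KO.

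Hk2, the hexokinase, varied little among rats in 3 of the 4 groups. Its WT control hearts had 73.4, 71.5, 70.3, 81.4 and 84.6 CPM in replicates 1 to 5, and its WT diabetic hearts 28.5, 22.5, 26.8, 25.8 and 26.9 CPM. Its Vegfb KO control hearts had 74.7, 70.8, 88.4, 76.8 and 77.5 CPM, and its Vegfb KO diabetic hearts 28.2, 25.4, 25.0, 37.5 and 41.4 CPM. No diabetic heart came near a control heart, and Vegfb KO diabetic replicates 4 and 5, the hearts with the most Slc2a4 among the diabetic rats, also had the most Hk2 among them. The coefficient of variation was 8.32% in WT control, 8.48% in WT diabetic and 8.44% in Vegfb KO control hearts, and 23.8% in Vegfb KO diabetic hearts. In WT the mean went from 76.2 ± 6.34 to 26.1 ± 2.21 CPM (SD, n = 5 each), -1.55 as a log2 fold change (SE 0.12, edgeR adjusted p = 4.85e-09), which is 2.93-fold lower. In Vegfb KO it went from 77.6 ± 6.55 to 31.5 ± 7.49 CPM (SD, n = 5 each), -1.29 as a log2 fold change (SE 0.12, edgeR adjusted p = 1.53e-07), which is 2.45-fold lower. Ranked by unadjusted p, Hk2 was number 5 of 14293 genes in each genotype.

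Pdk4, the kinase that inhibits pyruvate dehydrogenase, rose. WT control hearts had 207, 207, 219, 200.5 and 186 CPM in replicates 1 to 5, and WT diabetic hearts 1563, 2095, 1574, 2199.6 and 2095 CPM. Vegfb KO control hearts had 343, 249.97, 244, 243 and 247 CPM, and Vegfb KO diabetic hearts 1491, 1627, 2852, 957 and 1008 CPM. The lowest diabetic heart was above the highest control heart of either genotype. Vegfb KO diabetic hearts varied most, with replicate 3 above every WT diabetic heart and replicates 1, 4 and 5 below every WT diabetic heart, a 2.98-fold range beside 1.41-fold in WT diabetic hearts. In WT the mean went from 204 ± 12.1 to 1905 ± 311 CPM (SD, n = 5 each), 3.23 as a log2 fold change (SE 0.24, edgeR adjusted p = 2.99e-08), which is 9.36-fold higher. In Vegfb KO it went from 266 ± 43.3 to 1587 ± 765 CPM (SD, n = 5 each), 2.58 as a log2 fold change (SE 0.23, edgeR adjusted p = 7.32e-07), which is 5.98-fold higher. Pdk4 was number 6 by size among the 866 genes called higher in WT and number 6 among the 519 called higher in Vegfb KO.

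Gapdh, the glycolytic enzyme, showed the smallest change of the 5 genes. WT control hearts lay close together at 2743, 2853, 2771, 2841 and 2819.5 CPM in replicates 1 to 5, and WT diabetic hearts had 2223, 1672, 2191, 2003 and 2130.4 CPM. Vegfb KO control hearts had 2747, 2722, 3137, 2844 and 2695 CPM, and Vegfb KO diabetic hearts 1784.5, 2210.5, 1798, 2399 and 2318 CPM. All 10 diabetic hearts were below all 10 control hearts. The lowest heart of each diabetic group was the library in which 1 ID held over 20% of the count. Without both libraries the log2 fold change of Gapdh was -0.40 in WT and -0.38 in Vegfb KO, and both were still called. In WT the mean went from 2806 ± 46.9 to 2044 ± 224 CPM (SD, n = 5 each), -0.46 as a log2 fold change (SE 0.10, edgeR adjusted p = 0.00228), which is 1.37-fold lower. In Vegfb KO it went from 2829 ± 181 to 2102 ± 292 CPM (SD, n = 5 each), -0.43 as a log2 fold change (SE 0.10, edgeR adjusted p = 0.00668), which is 1.35-fold lower. Gapdh stayed lower and called with TMM, DESeq2 size factors and upper quartile scaling. Gapdh has many pseudogene copies, between which estimated counts can be split, so its level is uncertain.

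**Figure D2:**
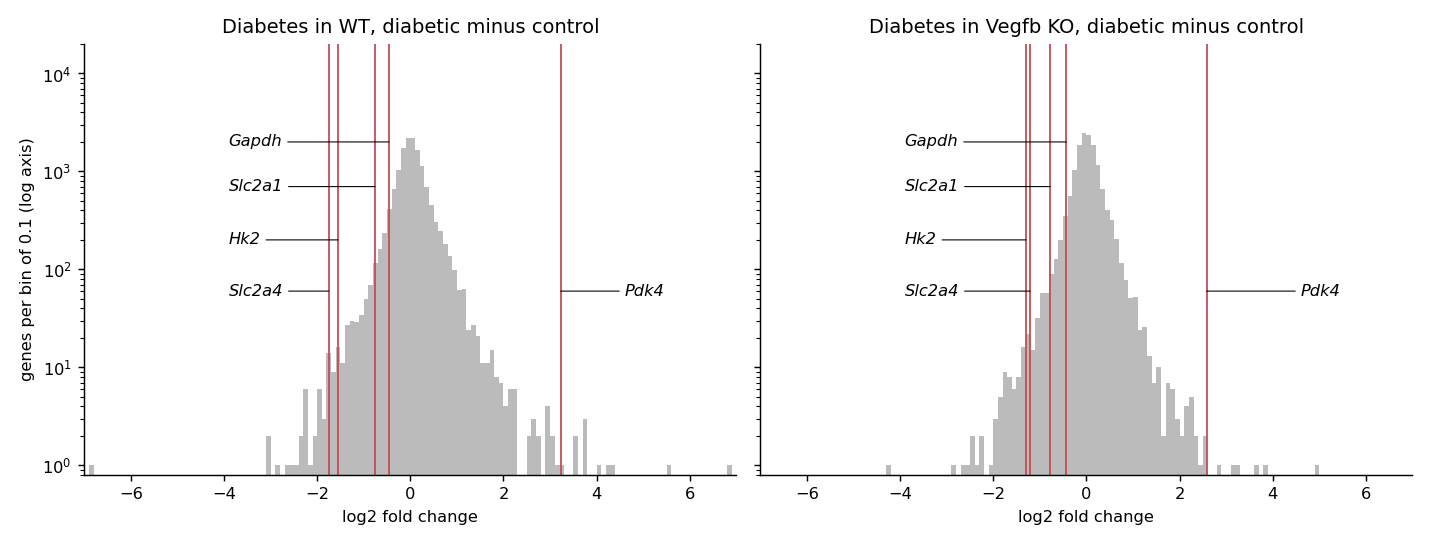
Number of genes (vertical log axis) by log2 fold change of diabetic against control hearts (horizontal axis, bins of 0.1) over 14293 genes in WT (left) and Vegfb KO (right), with red lines at the 5 genes. Pdk4 lies in the sparse right tail at 3.23 and 2.58, Slc2a4 and Hk2 in the left tail, and Slc2a1 and Gapdh on the left flank of the bulk of genes.

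Over all 14293 genes the log2 fold changes had a median of 0.011 (WT) and 0.0085 (Vegfb KO), so the values of the 5 genes are set against a centre near 0. By size among all genes with a log2 fold change below 0, Slc2a4 was number 32 in WT and number 85 in Vegfb KO. In the same order, Hk2 was number 59 and number 68, Slc2a1 number 357 and number 268, and Gapdh number 1001 and number 881. Among all genes with a log2 fold change above 0, Pdk4 was number 11 in WT and number 7 in Vegfb KO.

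Between the genotypes, no difference in any of the 5 genes was called. In control hearts 0 of 5 were called by edgeR's quasi-likelihood test, by its likelihood ratio test or by DESeq2, and 0 of 5 had an unadjusted p under 0.05 in the quasi-likelihood test. Of all genes, 4 were called by the quasi-likelihood test, or 0.028%, and 5 by each of the other tests, and 527 of 14293 had an unadjusted p under 0.05 in the quasi-likelihood test. Here and below, DESeq2 was run on every ID with any count, a wider set than these 14293 genes. Vegfb KO minus WT was -0.10 for Slc2a1 (95% confidence interval -0.43 to 0.23), -0.08 for Slc2a4 (-0.35 to 0.19, and -0.17 without WT control replicate 3, -0.02 without WT control replicate 4 and -0.05 without Vegfb KO control replicate 3), 0.02 for Hk2 (-0.21 to 0.26) and 0.01 for Gapdh (-0.19 to 0.21) on the log2 scale. The exception in pattern was Pdk4, which had 186 to 219 CPM in the 5 WT control hearts and 243 to 343 CPM in the 5 Vegfb KO control hearts, so that these groups did not overlap, as for 1.02% of all genes. Its difference was 0.38 on the log2 scale (95% confidence interval -0.07 to 0.84, edgeR adjusted p = 1), 1.30-fold higher in Vegfb KO, and Vegfb KO control replicate 1 stood well above the other 4. Without that heart the Pdk4 difference was 0.27.

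In diabetic hearts 0 of 5 genes were called between the genotypes by the same 3 tests. Of all genes, 6 were called by the quasi-likelihood test, or 0.042%, 38 by the likelihood ratio test and 65 by DESeq2, and the 6 became 181 without WT diabetic replicate 3 and 2 to 7 without any 1 of the other libraries. An unadjusted p under 0.05 in the quasi-likelihood test was reached by 2 of the 5 genes and by 1285 of all 14293, a count that fell to 854 on leaving out WT diabetic replicate 4 and rose to 2017 on leaving out replicate 3 of that group. Slc2a4 was 1.38-fold higher in Vegfb KO diabetic than in WT diabetic hearts, at 0.47 on the log2 scale (95% confidence interval 0.19 to 0.74, edgeR adjusted p = 0.295), with 2 of the 5 Vegfb KO hearts inside the WT diabetic range and 3 above it. None of the 5 genes was without overlap between the diabetic groups, which was seen for 0.986% of all genes. Hk2 was 1.21-fold higher, at 0.28 (0.04 to 0.52, edgeR adjusted p = 0.488), and the difference was 0.14 without Vegfb KO diabetic replicate 5. Pdk4 was at -0.26 (-0.72 to 0.19, edgeR adjusted p = 0.763), Slc2a1 at -0.12 (-0.47 to 0.23) and Gapdh at 0.04 (-0.16 to 0.24). Among all alternatives, Slc2a4 was called only without WT diabetic replicate 3, where the difference was 0.54 with an edgeR adjusted p of 0.0476, and the adjusted p ranged over them from 0.0476 to 0.672. For Pdk4 the difference was -0.58 without Vegfb KO diabetic replicate 3, -0.13 without replicate 4 and -0.14 without replicate 5 of that group.

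The difference between the responses was tested as an interaction, response in Vegfb KO minus response in WT, which uses the same 20 libraries as the other comparisons. Of the 5 genes 0 were called, and of all genes 0, or 0%, by edgeR's quasi-likelihood test, its likelihood ratio test or DESeq2. An unadjusted p below 0.05 was reached by 600 genes in the first of these, 561 in the likelihood ratio test and 672 with DESeq2, and 2 of the 5 genes were among the 600. That count was 1050 without WT diabetic replicate 3, 957 without WT control replicate 3 and 938 without WT diabetic replicate 2. A value above 0 means a higher log2 fold change with diabetes in Vegfb KO than in WT. The 2 genes were Slc2a4, at 0.55 on the log2 scale (95% confidence interval 0.16 to 0.93, edgeR adjusted p = 1), and Pdk4, at -0.65 (-1.29 to -0.003, edgeR adjusted p = 1). Leaving out 1 library moved Slc2a4 between 0.41 and 0.63 and Pdk4 between -0.97 and -0.51. Hk2 stood at 0.25 (-0.08 to 0.59), or 0.12 without Vegfb KO diabetic replicate 5, Gapdh at 0.03 (-0.26 to 0.31) and Slc2a1 at -0.02 (-0.49 to 0.46). Neither an equal nor an unequal response of the genotypes is shown for these genes.

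**Figure D3:**
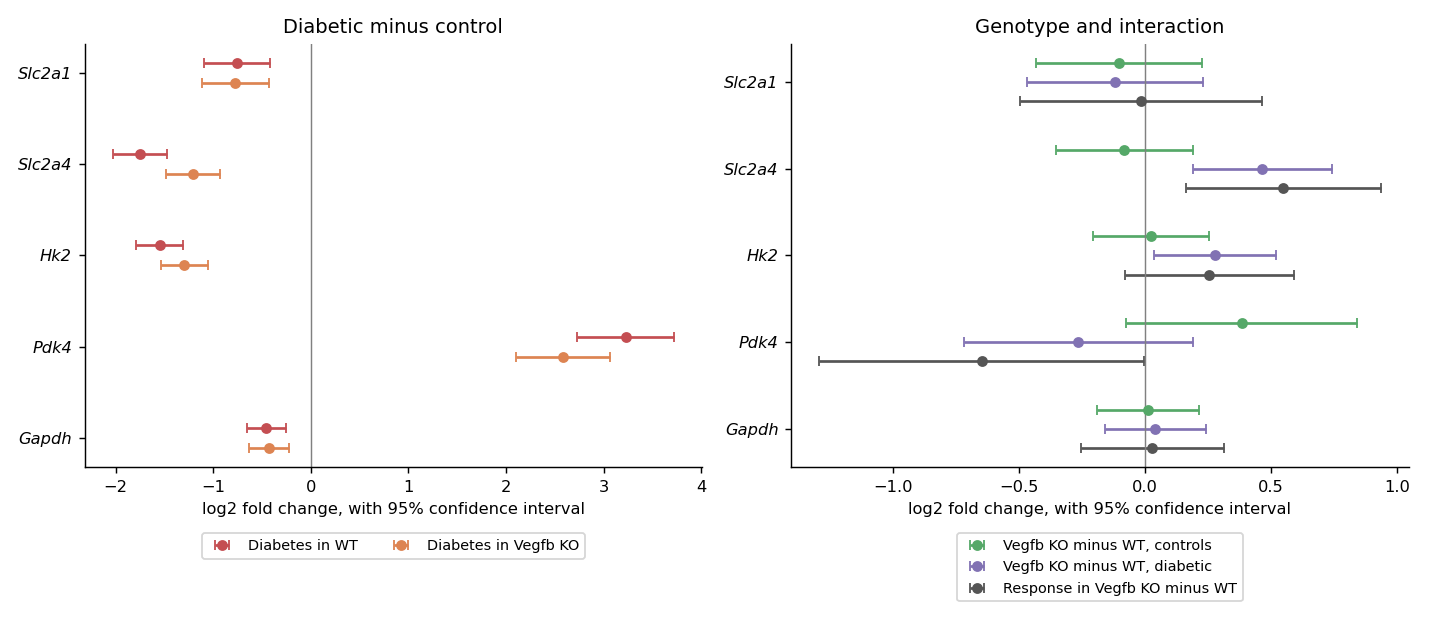
Log2 fold change of each gene (horizontal axis) with its 95% confidence interval from edgeR, for diabetic against control hearts in each genotype (left) and for Vegfb KO against WT in controls, in diabetic hearts and for the difference between the responses (right). On the left every interval lies on 1 side of 0, and on the right those of Slc2a4 in diabetic hearts and for the interaction, of Hk2 in diabetic hearts and of Pdk4 for the interaction do so before adjustment.

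A ratio of 2 genes within a library does not depend on how that library was scaled, apart from the 0.5 added here to each CPM. For 6 ratios the log2 ratio of CPM, with 0.5 added, was compared between groups by two-sided exact permutation tests, 24 in all, in which 5 hearts against 5 can give no p below 0.00794. Gene length was not removed, so only differences between groups are read. Gapdh itself was called lower with diabetes, at -0.46 in WT and -0.43 in Vegfb KO. A ratio to Gapdh is therefore not the change of the other gene alone. Relative to Gapdh, Slc2a4 fell by 1.28 in WT and by 0.79 in Vegfb KO on the log2 scale, and Hk2 fell by 1.07 and by 0.88. Each of these 4 differences had an exact p of 0.00794, the smallest possible, or 0.0238 after Benjamini-Hochberg adjustment over the 24 tests, with no overlap between the 5 diabetic and 5 control hearts. Pdk4 rose relative to Gapdh by 3.67 in WT and 2.91 in Vegfb KO, and relative to Hk2 by 4.74 in WT and 3.79 in Vegfb KO, with the same exact p and the same adjusted value. The Pdk4 to Hk2 ratio, which sets the inhibitor of pyruvate oxidation against the enzyme that traps glucose, was thus 26.7-fold higher in WT diabetic hearts and 13.8-fold higher in Vegfb KO diabetic hearts than in controls. Pdk4 rose and Hk2 and Gapdh fell without overlap in both genotypes, so no other p was possible for these Pdk4 ratios. Their p and adjusted value therefore add nothing to the changes of the single genes.

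For Slc2a1 the ratio to Gapdh, a gene that itself fell, did not pass after adjustment. It differed by -0.26 in WT (exact permutation p = 0.19, adjusted 0.269), or -0.15 without WT control replicate 3, and by -0.34 in Vegfb KO (exact permutation p = 0.0476, adjusted 0.0816), and diabetic and control hearts overlapped in both. WT diabetic replicates 1 and 2, at -6.87 and -6.85, were inside the WT control range of -7.18 to -6.48. Slc2a4 relative to Slc2a1 was lower by a log2 difference of -1.02 in WT diabetic hearts (exact permutation p = 0.0159, adjusted 0.0381), with WT diabetic replicate 3 inside the control range. That adjusted value leans on the Pdk4 ratio tests, whose p was fixed in advance. In Vegfb KO the Slc2a4 to Slc2a1 difference was -0.45 (exact permutation p = 0.0476, adjusted 0.0816), and it passed only without Vegfb KO control replicate 3, at -0.59 (adjusted 0.0317).

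Between the genotypes, 1 of 12 ratio tests passed after adjustment. Pdk4 relative to Gapdh was higher in Vegfb KO control than in WT control hearts by 0.36 (exact permutation p = 0.0159, adjusted 0.0381), and 4 of the 5 Vegfb KO hearts were above every WT control heart. The adjustment counted the Pdk4 ratio tests with diabetes, whose p was fixed in advance, and this lowers the adjusted values of others. This pass leans on them, and edgeR did not call Pdk4 itself between the control groups. Among diabetic hearts, Slc2a4 relative to Slc2a1 was higher in Vegfb KO by 0.60 (exact permutation p = 0.0238, adjusted 0.0519) and relative to Gapdh by 0.41 (exact permutation p = 0.0317, adjusted 0.0635). The differences of the other ratios between the genotypes ranged from -0.61 for Pdk4 to Hk2 in diabetic hearts to 0.35 for the same ratio in control hearts, and the first of these was -0.92, -0.39 and -0.37 without Vegfb KO diabetic replicates 3, 4 and 5. The calls for Pdk4 to Gapdh between control groups and for Slc2a4 to Slc2a1 in WT were each lost on leaving out any of 8 hearts, with adjusted values from 0.0635 to 0.0762, where 4 hearts against 5 can give no p below 0.0159. Other ratios passed between the genotypes only with 1 heart left out. In diabetic hearts these were Slc2a4 to Gapdh at 0.50 without WT diabetic replicate 2 (adjusted 0.0381), Hk2 to Gapdh at 0.29 without Vegfb KO diabetic replicate 2 (adjusted 0.0346), and Slc2a4 to Slc2a1 at 0.73 without WT diabetic replicate 3 (adjusted 0.0346) and at 0.60 without Vegfb KO control replicate 3, where only the adjustment over the 24 tests differed. In control hearts it was Pdk4 to Hk2 at 0.42 without Vegfb KO control replicate 3 (adjusted 0.0317).

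**Figure D4:**
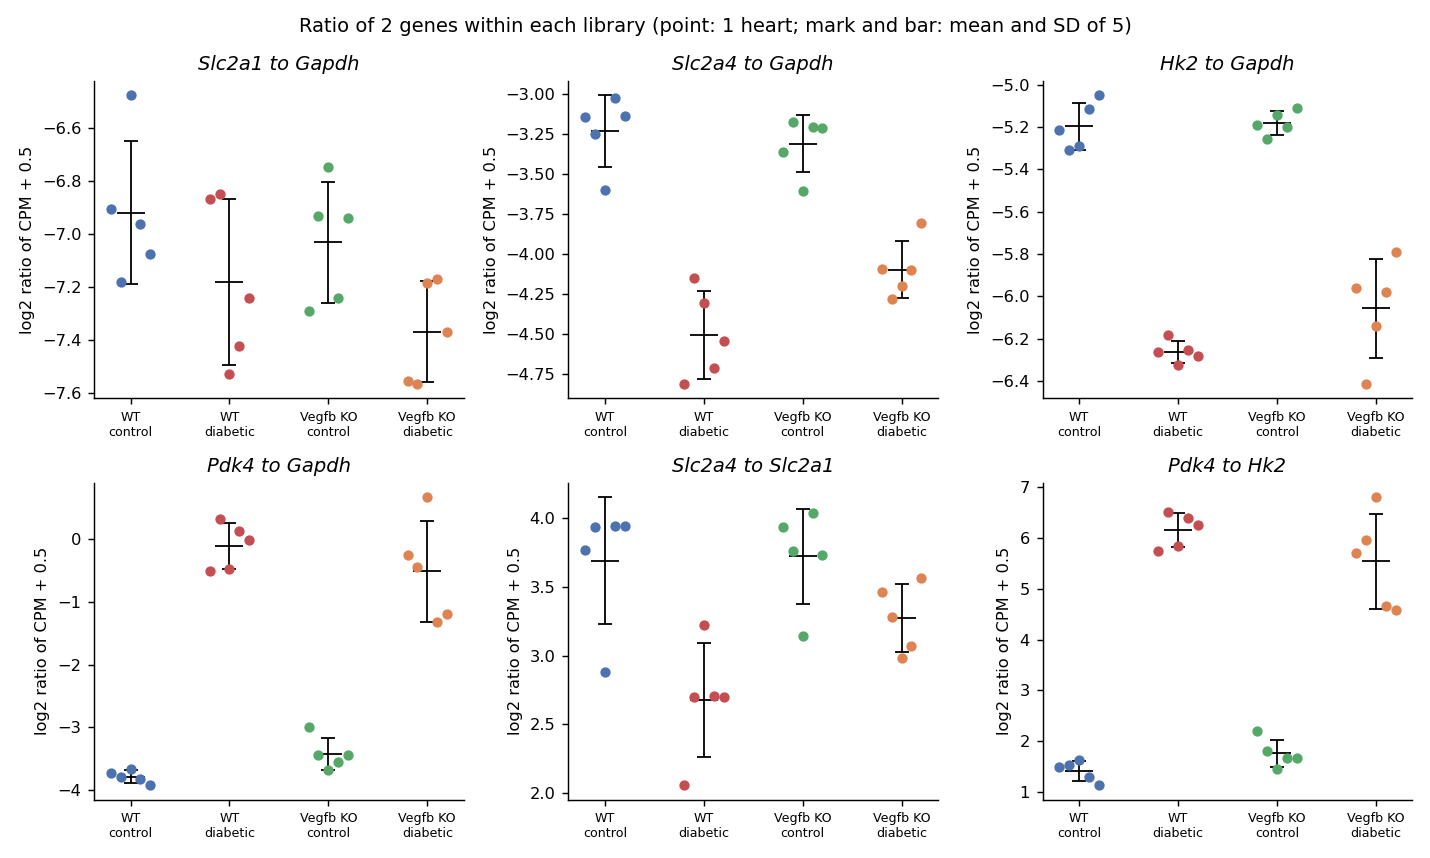
Log2 ratio of 2 genes within each library (vertical axes, each with its own range) in the 4 groups, with 1 point for each heart and the mean and SD of 5 hearts. Diabetic and control hearts are apart for Slc2a4, Hk2 and Pdk4 relative to Gapdh and for Pdk4 relative to Hk2, and they overlap for Slc2a1 relative to Gapdh and Slc2a4 relative to Slc2a1.

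Over the 20 libraries 3 pairs of the 5 genes varied together among rats of the same group, and 1 of these, Hk2 and Gapdh, also passed without the Vegfb KO diabetic hearts. Correlations were computed over the 20 libraries from the deviation of log2 CPM from the mean of the group, for 10 pairs of genes, with permutations within groups. Hk2 and Pdk4 moved in opposite directions (Pearson r = -0.775, permutation p = 0.00465, adjusted 0.0465 over the 10 pairs, Spearman rho = -0.744, permutation p = 0.00262, adjusted 0.0223). Slc2a4 and Pdk4 did likewise (r = -0.644, permutation p = 0.0139, adjusted 0.0465, rho = -0.633, permutation p = 0.0125, adjusted 0.0417). Hk2 and Gapdh moved in the same direction (r = 0.719, permutation p = 0.0122, adjusted 0.0465, rho = 0.719, permutation p = 0.00447, adjusted 0.0223). Pdk4 and Gapdh (r = -0.66, permutation p = 0.0256, adjusted 0.0641, rho = -0.605, permutation p = 0.0293, adjusted 0.0733) and Slc2a4 and Hk2 (r = 0.578, permutation p = 0.0511, adjusted 0.102, rho = 0.502, permutation p = 0.0666, adjusted 0.133) did not pass. None of the 4 pairs with Slc2a1 passed, with r from -0.355 to 0.433, rho from -0.405 to 0.353, permutation p from 0.101 to 0.876 and adjusted values from 0.168 to 0.876. The last pair, Slc2a4 and Gapdh, had r = 0.387 and rho = 0.334 (permutation p = 0.197 and 0.213, adjusted 0.22 and 0.237).

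Vegfb KO diabetic hearts spread widest in these pairs, with replicate 3 highest in Pdk4 and lowest in Hk2 and Slc2a4 of its group, and replicates 4 and 5 the reverse. Over the 15 libraries of the other 3 groups, an alternative chosen after the data were seen, r was -0.50 for Hk2 and Pdk4 (adjusted permutation p = 0.265), -0.368 for Slc2a4 and Pdk4 (0.363), -0.492 for Pdk4 and Gapdh (0.363) and 0.0796 for Slc2a4 and Hk2 (0.856), and 0.779 for Hk2 and Gapdh (0.014). Slc2a1 and Slc2a4, at r = -0.0673 over the 20 libraries, stood at -0.513 over these 15 (0.265), the other 3 pairs with Slc2a1 at -0.302 to 0.219 (0.54 to 0.613) and Slc2a4 and Gapdh at -0.0638 (0.856). The correlations of Pdk4 with Hk2 and Slc2a4 were thus weaker, and did not pass, without the Vegfb KO diabetic group. Without the 2 libraries farthest from the median of the gene on the horizontal axis, r was -0.65 for Hk2 and Pdk4, -0.611 for Slc2a4 and Pdk4, 0.639 for Hk2 and Gapdh, -0.486 for Pdk4 and Gapdh and 0.405 for Slc2a4 and Hk2. Among the pairs with Slc2a1, r without those libraries ran from -0.303 to 0.289, and for Slc2a4 and Gapdh it was 0.328. Without the 2 libraries in which 1 ID held over 20% of the count, r was -0.79 for Hk2 and Pdk4 and -0.68 for Slc2a4 and Pdk4, each with an adjusted permutation p of 0.0553, and -0.84 for Pdk4 and Gapdh with 0.0201. Genes of a library share its scaling, which can move them together. Within single groups 5 hearts are too few for a correlation.

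**Figure D5:**
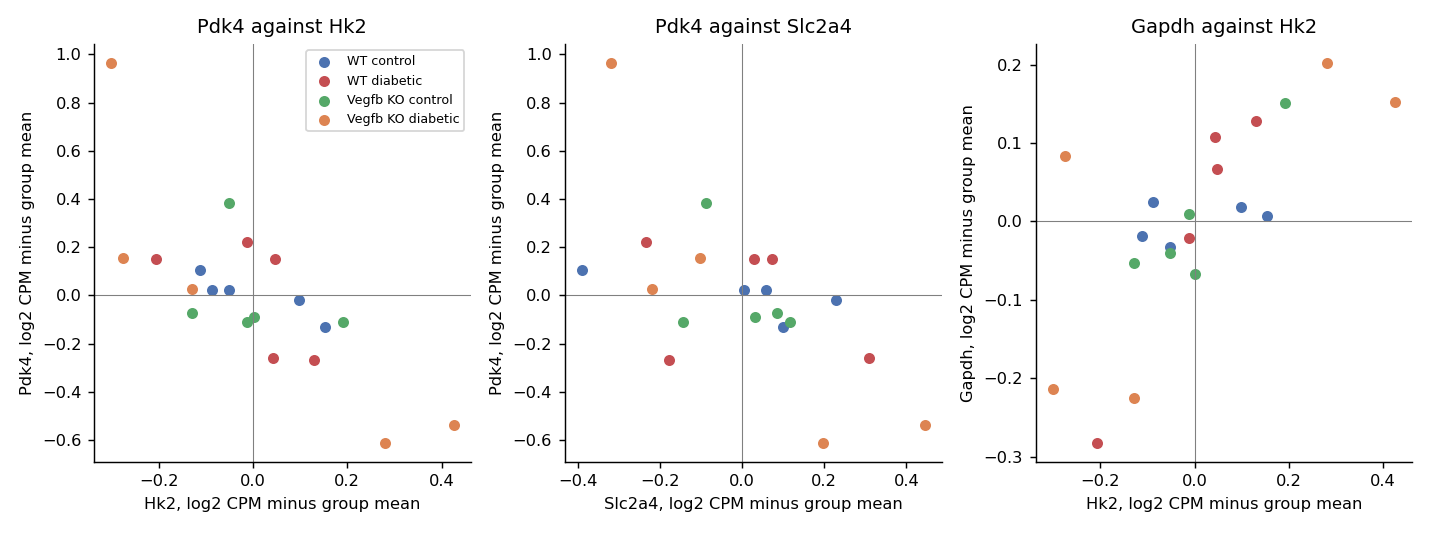
Deviation of log2 CPM from the mean of the group for Pdk4 against Hk2, Pdk4 against Slc2a4 and Gapdh against Hk2, with 1 point for each of the 20 hearts, coloured by group. Pdk4 falls as Hk2 (r = -0.775) and Slc2a4 (r = -0.644) rise, Gapdh rises with Hk2 (r = 0.719), and Vegfb KO diabetic hearts lie at both ends of the Hk2 and Pdk4 axes.

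The genes whose log2 CPM over the 20 libraries was most like that of Pdk4 and Slc2a4 were sought among 12763 genes with a mean of at least 1 CPM. Most like Pdk4 were ENSRNOG00000005906 (r = 0.983) and ENSRNOG00000019120 (r = 0.982). ENSRNOG00000005906 had 1018 ± 60.7 and 2033 ± 198 CPM in WT control and diabetic hearts, and 1079 ± 61.4 and 1976 ± 272 CPM in Vegfb KO control and diabetic hearts (SD, n = 5 each). ENSRNOG00000019120 had 8.18 ± 1.27 and 109.7 ± 38.5 CPM in WT, and 8.54 ± 0.714 and 107 ± 57.0 CPM in Vegfb KO (SD, n = 5 each). Diabetes went with log2 fold changes of 1.00 and 3.76 in these IDs in WT hearts and 0.87 and 3.65 in Vegfb KO hearts, so a like pattern went with a smaller change in ENSRNOG00000005906 than in Pdk4 and a larger one in ENSRNOG00000019120. Most like Slc2a4 were ENSRNOG00000057367 (r = 0.975) and ENSRNOG00000008921 (r = 0.973). ENSRNOG00000057367 had 159 ± 9.26 and 108 ± 7.11 CPM in WT, and 154 ± 4.29 and 115 ± 8.83 CPM in Vegfb KO (SD, n = 5 each). ENSRNOG00000008921 had 236 ± 10.5 and 176 ± 10.3 CPM in WT, and 231 ± 12.1 and 192 ± 17.3 CPM in Vegfb KO (SD, n = 5 each). These r values span the 4 groups, so they mostly follow the difference between diabetic and control hearts, and they are given as a description with no test.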

How the data were processed

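The authors sequenced directional paired-end libraries, and the submitters' processing notes name kallisto, edgeR, DESeq2 and the build mRatBN7.2. The deposited table holds an estimated count for each Ensembl ID and library, not scaled to library size, and 0% of the nonzero values are whole. They were rounded to whole numbers. Whether strand was used in counting is not given in the sources used here, so antisense transcripts cannot be told apart.

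The analysis used edgeR 4.0.16 (R 4.3.3): filterByExpr by group, TMM normalization, and a robust quasi-likelihood fit of 4 group means to all 20 libraries. The SE is the log2 fold change divided by the square root of its F statistic. Calls required an adjusted p under 0.05 (Benjamini-Hochberg, 14293 genes) and, except for the interaction, a log2 fold change beyond 0.27 in either direction. Log2 CPM used a prior count of 2. Exact permutation tests of log2 ratios used scipy 1.17.1, and correlations used 100000 permutations within groups with numpy 2.4.6. Figures were drawn with matplotlib 3.10.9. The fits were tested on simulated counts.

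The named genes are the 5 members and, by rule, the 2 IDs with the highest Pearson r to Pdk4 and to Slc2a4. The members and lists were chosen with earlier results of these data known. The planned lists of sugar transporters, glycolysis, pyruvate entry, glycogen, insulin signal, regulators and cell type markers need names for the IDs, 0 of which the RefSeq table (GRCr8) carries, and were not analysed here. The heart label was therefore not checked by markers. Promoters were matched by symbol and no position was transferred between builds.

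Totals ranged from 7220469 to 26664479 counts per library, and low counts are least precise in the shallowest. Libraries of a group differed by more than sampling noise (chi-square per gene of at least 6.23 in 40 pairs). The alternatives tried were edgeR's likelihood ratio test, DESeq2 1.42.0, its size factors in edgeR, upper quartile scaling, TMM without IDs over 5% of a library, other filters, a replicate block, thinning to the smallest total, fits of only the 10 libraries compared, other added values before the log of a ratio, and libraries left out. The correlations without the Vegfb KO diabetic group were added after seeing the data.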

Additional observations from a re-analysis of the deposited data

Results flagged for a closer look

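In 48 groups of 5 values examined (CPM of the 5 genes, total counts and log2 ratios), 4 held a value far from the others of its group, and chance alone gives about 1 in 20. Slc2a1 was 30.6 CPM in WT control replicate 3, with 19.2 to 22.4 CPM in the other 4. The same heart had a log2 Slc2a4 to Slc2a1 ratio of 2.88, with 3.77 to 3.94 in the others. Pdk4 was 343 CPM in Vegfb KO control replicate 1, with 243 to 249.97 CPM in the others. The total count of WT diabetic replicate 1 was 12965611, with 20780650 to 23399247 in the others. What set these hearts apart was not tested.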

How the results depend on the processing

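Each of the 5 genes kept its direction and its call with diabetes in both genotypes under the 12 alternatives of processing and with each of the 20 libraries left out in turn. The log2 fold change of Pdk4 in Vegfb KO then ran from 2.26 to 2.72. No scaling moved the median of all genes by over 0.1. The count of genes called between the genotypes in diabetic hearts was 6, and it was 65 with DESeq2, 38 with the likelihood ratio test, 3 in a fit of only the 10 libraries compared, 2 without libraries with totals under 10000000, and 2 to 181 with 1 library left out. The count called with diabetes in Vegfb KO was 643 to 1244 with 1 library left out.

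Among log2 differences, signs turned only for values near 0 that were not called. For Slc2a1 the interaction was 0.055 without the 2 libraries in which 1 ID held over 20% of the count and 0.10 without libraries with totals under 10000000, and the Hk2 to Gapdh ratio between control groups was -0.012 in the latter case. With 1 library left out, the genotype difference in controls ran from -0.23 to 0.020 for Slc2a1, -0.17 to -0.023 for Slc2a4, -0.027 to 0.065 for Hk2 and -0.028 to 0.029 for Gapdh. In diabetic hearts it ran from -0.23 to 0.0064 for Slc2a1, 0.33 to 0.54 for Slc2a4, 0.14 to 0.36 for Hk2 and -0.024 to 0.092 for Gapdh, and the interaction ran from -0.14 to 0.11 for Slc2a1 and -0.036 to 0.080 for Gapdh.

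Among the ratios, Pdk4 to Gapdh between control groups was 0.36 without libraries with totals under 10000000 and no longer passed, and Slc2a4 to Slc2a1 with diabetes in WT was -1.02 without the 2 libraries with 1 dominant ID and -0.96 without those under 10000000, where it no longer passed. Fewer hearts raise the smallest p there. With 1 library left out, the control groups differed by -0.18 to 5.2e-05 for Slc2a1 to Gapdh, -0.17 to -0.0072 for Slc2a4 to Gapdh, -0.012 to 0.052 for Hk2 to Gapdh, 0.26 to 0.43 for Pdk4 to Gapdh, -0.17 to 0.17 for Slc2a4 to Slc2a1 and 0.24 to 0.42 for Pdk4 to Hk2. The diabetic groups differed by 0.33 to 0.50 for Slc2a4 to Gapdh, 0.14 to 0.29 for Hk2 to Gapdh, 0.44 to 0.73 for Slc2a4 to Slc2a1, -0.27 to -0.10 for Slc2a1 to Gapdh (-0.058 without the 2 libraries with 1 dominant ID), -0.70 to -0.20 for Pdk4 to Gapdh and -0.92 to -0.37 for Pdk4 to Hk2. With diabetes, Slc2a4 to Slc2a1 ran from -1.22 to -0.86 in WT and -0.59 to -0.37 in Vegfb KO, and Slc2a1 to Gapdh from -0.34 to -0.15 in WT. Without the 2 libraries with 1 dominant ID, r was -0.68 for Slc2a4 and Pdk4 and -0.79 for Hk2 and Pdk4, no longer past the threshold, and -0.84 for Pdk4 and Gapdh, now past it. Without the Vegfb KO diabetic group, chosen after seeing the data, r was -0.50 for Hk2 and Pdk4 and -0.368 for Slc2a4 and Pdk4, no longer past it, -0.0638 for Slc2a4 and Gapdh and -0.513 for Slc2a1 and Slc2a4, which was -0.208 without the 2 libraries with 1 dominant ID. The cause of these changes was not tested.

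With the replicate number as a replicate block, 1785 genes were called with diabetes in WT and 1048 in Vegfb KO, 3 and 4 between the genotypes in control and diabetic hearts and 0 for the interaction, and no call of the 5 genes changed. Deviations of same-numbered libraries correlated at -0.257 to 0.264, and 0 to 3 of 10 libraries were most like the one with their own number, so the numbers were not taken to pair the samples. Diabetic rats had littermate-matched controls, but no label ties a number to a litter. With counts thinned to 7220469 per library the 5 genes kept their calls with diabetes, and the count called was 1576 in WT and 922 in Vegfb KO.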
